A study of Mus musculus with 26 samples.

Results

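The comparison described here is that of 2 groups of hippocampal arrays from aged mice carrying an amyloid precursor protein (APP) transgene: 4 arrays after a lentiviral vector for brain-derived neurotrophic factor (BDNF) and 4 after one for green fluorescent protein (GFP). They were chosen by the region, genotype and treatment in the array titles, and are 8 of the series' 26 arrays. Both viruses were given to the entorhinal cortex, not to the hippocampus, and tissue was taken 4 weeks later. The other hippocampal arrays are 2 from non-transgenic mice given GFP and 3 from non-transgenic mice with a sham lesion, and the same 4 groups were arrayed in entorhinal cortex. All 8 arrays compared therefore carry the transgene and a vector, and differ by the vector's cargo. The transgenic line, its promoter and the promoter of the vectors are not given in the labels, which call the arrays of a group biological replicates. Below, "BDNF array" and "GFP array" mean transgenic hippocampal arrays, numbered as in their titles.

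The entorhinal cortex is the main cortical input of the hippocampus, and its axons end in the dentate gyrus and on the outer dendrites of pyramidal cells. BDNF is secreted by neurons, can be carried along axons, and acts on neighbouring cells through the receptor TrkB, which feeds the ERK, PI3K and phospholipase C pathways. Its known effects include support of neuronal survival, synapse strength and inhibitory interneurons. Amyloid plaques in APP transgenic mice are surrounded by activated microglia and astrocytes, so neuronal and glial genes are both described below.

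Levels are log2 values of Affymetrix probe sets made comparable between arrays by RMA, a method that brings all arrays to a common distribution. Over all 45101 probe sets, any 2 of the 8 arrays correlated at 0.991 to 0.997, and the highest correlation with an entorhinal array was 0.989. The mean over dentate granule cell genes was 8.57 to 9.13 on the 13 hippocampal arrays against 7.42 to 7.72 on entorhinal arrays, and that over cortical layer genes was 7.16 to 7.33 against 7.60 to 7.85, so the labelled tissue bore its markers. Thy1, a neuronal surface protein, read 13.84 to 13.99 on the 8 arrays and 12.56 to 12.67 on non-transgenic arrays. The transgenic arrays thus lay together and apart from the others in Thy1, whichever vector they had received, and the cause was not tested. Of the other arrays in the fit, sham array 1 stood apart in choroid plexus genes, at 7.92 against at most 6.15. Xist, which is expressed from the inactive X chromosome of females, was high on BDNF arrays 1 and 2 and GFP arrays 1 and 3 and low on the other 4, so each group held 2 arrays of each kind. Changes within the 2 Xist classes are given below for MHC class II, myelin, interneuron and dentate genes.

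No gene passed the test. Limma with Benjamini-Hochberg adjustment called 0 of 14941 genes (0%) at an adjusted p under 0.05, and also 0 in each of the alternatives tried. At an unadjusted p under 0.05, 274 genes (1.83%) read higher with BDNF and 519 (3.47%) lower. That split depended on the scaling of the arrays: with quantile normalization repeated over the 13 hippocampal arrays, 441 genes read higher and 373 lower, and with arrays centred on their median, 250 and 550. The medians of the immune and myelin lists below had the same sign under both. The shares of 1.83% and 3.47% are the background for the list counts of BDNF against GFP below. That background also moves when 1 array is left out. The 793 genes of both directions became 473 without BDNF array 2 and 1063 without GFP array 1. They became 1409 without GFP array 3, 925 without GFP array 4 and 697 to 807 without each of the others. The median change over all genes was −0.01, with 8140 genes (54.5%) below 0. All 4 BDNF arrays read above all 4 GFP arrays for 165 genes (1.1%) and below them for 230 (1.54%). The smallest adjusted p was 0.11 (limma), that of Acer2. In what follows, "read lower" and "read higher" give the direction of a measured difference that did not pass the test, and differences are BDNF minus GFP on the log2 scale with their moderated standard error (n = 4 and 4). That error rests on 1 spread per gene shared by all 13 hippocampal arrays in their 4 groups. Where the groups differ in spread, it can be too small for this comparison. For Ighm the standard deviation was 3.01 with GFP, 0.30 with BDNF and 0.15 on sham arrays.

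Among genes lower with BDNF, the smallest p was that of Acer2, which encodes an alkaline ceramidase of the Golgi, which cleaves ceramide to sphingosine. It read 6.25, 6.30, 6.34 and 6.24 on BDNF arrays 1 to 4 against 6.75, 6.67, 6.85 and 6.79 on GFP arrays 1 to 4. The groups were separated by more than the range within either, and the non-transgenic GFP (6.51 and 6.71) and sham arrays (6.71 to 6.88) also read above every BDNF array. The difference was −0.48 ± 0.07, or 1.40-fold, and its limma adjusted p ranged from 0.0814 to 0.999 over the alternatives. With the mean of both its probe sets it was −0.22, since the dimmer probe set, at a mean of 3.34, read 0.05.

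Rhog, a small GTPase that acts upstream of Rac in neurite growth and phagocytosis, read 8.01, 7.95, 7.91 and 7.97 with BDNF and 8.25, 8.50, 8.40 and 8.37 with GFP. The groups did not overlap, and the 5 non-transgenic arrays, at 8.13 to 8.42, were again all above the BDNF arrays. The difference was −0.42 ± 0.07 (limma adjusted p = 0.538). Rapgef3, the cyclic AMP-activated exchange factor for Rap known as Epac1, differed by −0.28 ± 0.06 on its brightest probe set, and the 3 other probe sets above the filter read −0.01, −0.11 and −0.15. Rassf2, which carries a Ras-association domain, differed by −0.28 ± 0.06, but its second probe set read 0.03 ± 0.10. Depdc7 differed by −0.68 ± 0.13 and Vwa1, an extracellular matrix protein, by −0.29 ± 0.07.

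Gask1b, a Golgi-associated protein, had the largest difference among the 12 lowest-p genes of this direction, −0.96 ± 0.22, and its second probe set read −0.92. Its levels were 5.39, 5.71, 5.74 and 5.73 with BDNF and 7.20, 6.28, 6.26 and 6.67 with GFP. Non-transgenic arrays spanned 5.40 to 6.62, from the lowest BDNF level into the GFP range. Chil1, a chitinase-like secreted protein known as an astrocyte marker of inflammation, read 7.06, 7.01, 7.15 and 6.89 with BDNF and 7.41, 7.51, 7.67 and 7.35 with GFP. Here the sham arrays, at 6.78 to 7.14, lay with the BDNF arrays, and the difference was −0.46 ± 0.09. The other 4 of the 12 genes are described with the myelin genes: Hapln2, Tmem125 and Klk6, which are in that list, and Plekhh1, which is not. All 12 kept their direction in both Xist classes.

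**Figure D1:**
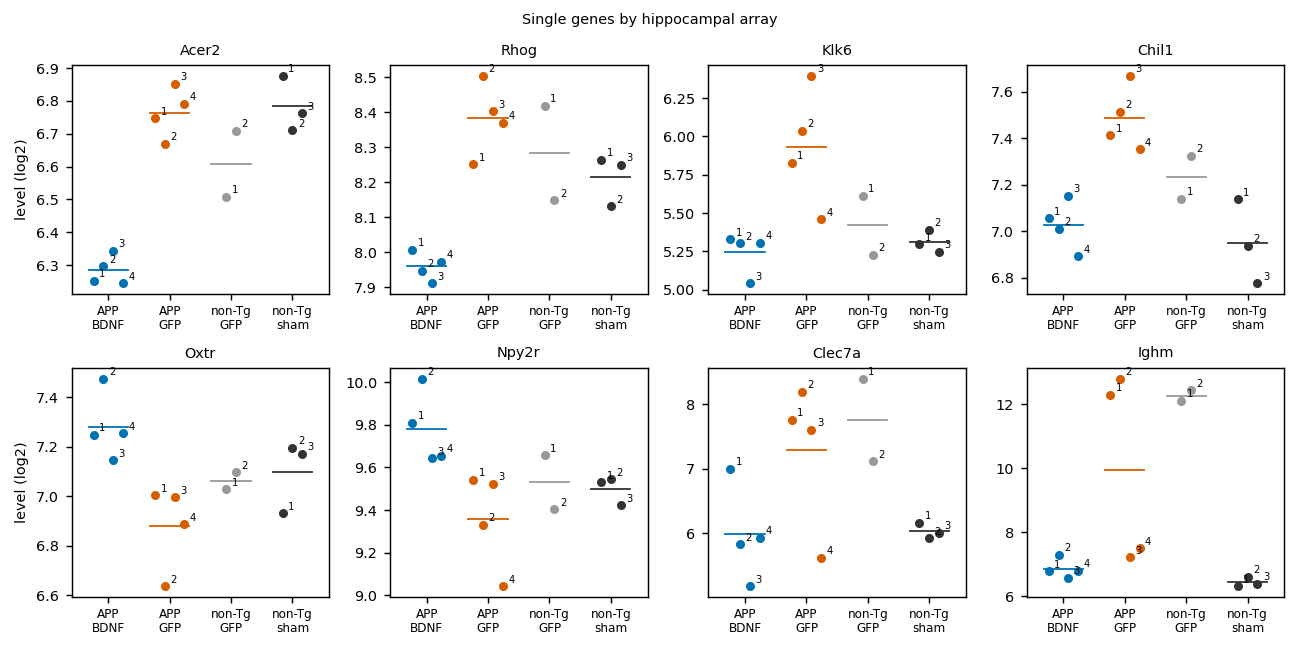
Log2 level of 8 genes on each of the 13 hippocampal arrays (points, numbered by replicate; lines, group means), by group. Acer2, Rhog, Klk6 and Chil1 read lower on every BDNF array than on every GFP array and Oxtr and Npy2r higher, whereas for Clec7a and Ighm the GFP arrays are spread widely and overlap the BDNF arrays.

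Genes of mature oligodendrocytes, the cells that wrap axons in myelin, read lower as a list. Of 37 genes tested 36 were below 0, where 54.5% of all genes were, with a median of −0.24 against −0.01 over all genes. At an unadjusted p under 0.05, 14 were lower and 0 higher, and for 6 the arrays did not overlap (backgrounds 3.47% and 1.54%). Klk6, a secreted protease of oligodendrocytes, read 5.33, 5.30, 5.04 and 5.31 with BDNF and 5.83, 6.04, 6.40 and 5.46 with GFP (−0.69 ± 0.16). The non-transgenic arrays, at 5.23 to 5.61, lay nearer to the BDNF arrays. Hapln2, a link protein of the matrix at nodes of Ranvier, read 5.70 to 5.87 with BDNF and 6.05 to 6.48 with GFP (−0.42 ± 0.10). Tmem125 read 6.24 to 6.30 and 6.58 to 6.95 (−0.50 ± 0.11). Plekhh1, which is not a member of the list, read 8.01 to 8.26 and 8.46 to 8.61 (−0.41 ± 0.09). Fa2h, which makes the hydroxylated fatty acids of myelin lipids, read −0.28 ± 0.09.

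The classical myelin proteins, named here after their values were seen, did not all take part. Mag, the myelin-associated glycoprotein at the axonal face, read −0.40 ± 0.16 and Mog, of the outer myelin surface, −0.43 ± 0.20. Mbp, myelin basic protein, which compacts the sheath, read −0.02 ± 0.09 and Olig1, a transcription factor of the whole lineage, 0.01 ± 0.07. Oligodendrocyte precursor genes had a median of 0.00, with 5 of 10 lower, and Pdgfra, their defining receptor, read 0.08 ± 0.08. Enpp6, of newly formed oligodendrocytes, read −0.16 ± 0.11 and the matrix protein Tnr 0.24 ± 0.11.

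By array, the mean over the 37 myelin genes was 8.83, 8.75, 8.65 and 8.64 with BDNF and 8.75, 8.98, 9.04 and 9.11 with GFP. GFP array 1 lay among the BDNF arrays and the other 3 GFP arrays above all of them. The sham arrays read 8.97 to 9.09 and non-transgenic GFP arrays 8.99 and 8.70. The number lower at an unadjusted p under 0.05 was 24 without GFP array 1 and between 7 and 9 without BDNF arrays 2, 3 or 4 or GFP arrays 3 or 4, while the median stayed between −0.36 and −0.20. The median was −0.09 among Xist-high arrays (25 of 37 lower) and −0.42 among Xist-low arrays (36 of 37 lower). In this bulk tissue, fewer cells of a type and less RNA per cell cannot be told apart, here and for each cell type below.

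Among the genes higher with BDNF, 2 encode receptors of neuropeptides. Oxtr, the oxytocin receptor, which in hippocampus is prominent in CA2 and in interneurons, read 7.25, 7.47, 7.14 and 7.25 on BDNF arrays 1 to 4 and 6.64, 6.99 and 6.89 on GFP arrays 2 to 4, with GFP array 1 next to array 3. The groups did not overlap, but 4 of the 5 non-transgenic arrays, at 7.03 to 7.20, lay in the gap between them or among the BDNF arrays, and sham array 1, at 6.93, within the GFP range. The difference was 0.40 ± 0.10, and the dimmer second probe set read 0.07 ± 0.09. Npy2r, the presynaptic Y2 receptor of neuropeptide Y, read 9.81, 10.02, 9.64 and 9.65 with BDNF and 9.54, 9.33, 9.52 and 9.04 with GFP. The gap between the groups was narrower than the spread within each, and the difference was 0.42 ± 0.12.

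Rps6, a protein of the small ribosomal subunit, read 8.49, 8.14, 8.04 and 8.51 with BDNF and 7.64, 7.40, 7.29 and 7.89 with GFP (0.74 ± 0.21). Non-transgenic arrays took both ranges: sham arrays 2 and 3 read 8.54 and 8.26, with the BDNF arrays, and the other 3 read 7.34 to 7.70, with the GFP arrays. Prcc, a nuclear protein linked to splicing, read 6.70 to 6.79 with BDNF and 5.82 to 6.46 with GFP (0.54 ± 0.13). Tenm4, a teneurin that guides axons and oligodendrocyte maturation, read 9.06 to 9.21 with BDNF, above every GFP array (0.34 ± 0.10). Its dimmer probe sets read 0.19 ± 0.24 and 0.14 ± 0.10. Zmym3, a zinc finger protein, differed by 0.25 ± 0.07 on its brightest probe set and by 0.06, −0.10 and 0.06 on the 3 others. The remaining 6 of the 12 genes (Astl, Tg, Iqcc, Epgn, Lce3f and Il17a) differed by 0.26 to 0.51. On these arrays Iqcc read 5.76 to 6.69, above the array medians of 5.51 to 5.58, and the others read below those medians. Il17a was the only one of the 24 genes of both directions whose groups overlapped.

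These 24 genes can be set beside the entorhinal cortex, where the vectors were given. Of the 12 lower genes 9 were also below 0 there, and of the 12 higher genes 5 were also above 0, where 6703 of all 14941 genes were below 0 in entorhinal cortex. Gask1b read −1.06 ± 0.31 in entorhinal cortex and Rps6 0.69 ± 0.22, close to their hippocampal values. Tmem125 read −0.64 ± 0.37 and Acer2 −0.20 ± 0.11. Npy2r and Oxtr had the opposite sign there, −0.79 ± 0.50 and −0.14 ± 0.20. The difference between the regions was 1.21 ± 0.54 for Npy2r and 0.54 ± 0.23 for Oxtr, each with a limma adjusted p of 0.996 over all genes. The labels do not say which arrays of the 2 regions share an animal.

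**Figure D2:**
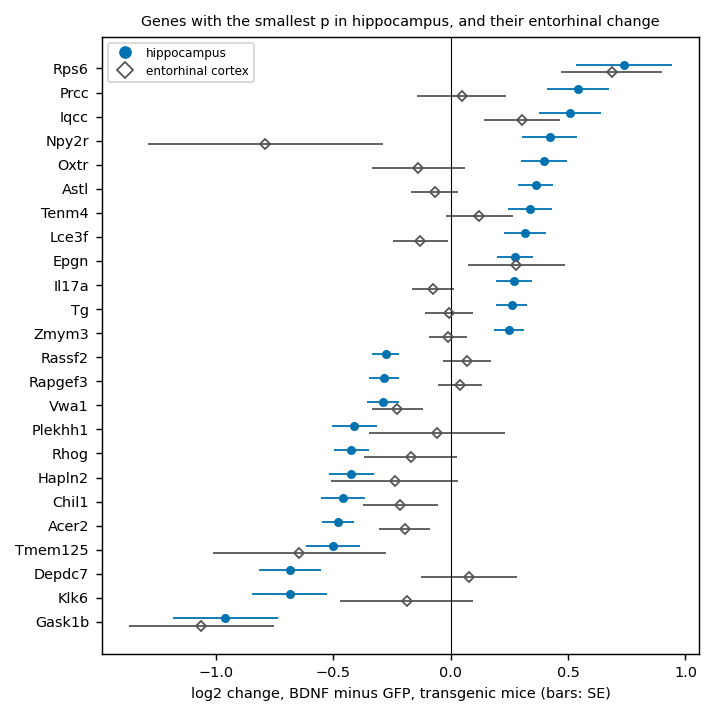
Log2 change, BDNF minus GFP in transgenic mice, of the 24 genes with the smallest p in hippocampus (circles) and of the same genes in entorhinal cortex (diamonds), with standard errors. The genes were chosen on the hippocampal values; Gask1b and Rps6 have like entorhinal values, −1.06 and 0.69, whereas Npy2r lies at −0.79 in entorhinal cortex against 0.42 in hippocampus.

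The mRNA of the ligand and of its receptors differed little. Bdnf, which is made by hippocampal neurons, read 8.69, 8.60, 8.57 and 8.99 with BDNF and 9.16, 9.10, 8.35 and 8.80 with GFP. The groups overlapped, and the difference of −0.14 ± 0.17 had a 95% interval of −0.50 to 0.22. In entorhinal cortex, where the vectors were given, Bdnf read 0.11 ± 0.21, within its error. Whether this probe set reads the vector's BDNF was not tested, and BDNF protein carried along axons is not measured by these arrays. Ntrk2, encoding TrkB, read 0.02 ± 0.10 with an interval of −0.19 to 0.23, and its 6 other probe sets above the filter read −0.06 to 0.10. Ngfr, the p75 receptor of all neurotrophins, read 0.14 ± 0.08. Furin, a protease that cleaves BDNF from its precursor, read −0.13 ± 0.06. Of 11 neurotrophin and receptor genes, 6 were lower and 1 of them, Furin, had an unadjusted p under 0.05 (background 3.47%).

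Of 24 kinases and adaptors below TrkB, 13 were lower, with a median of −0.01. At an unadjusted p under 0.05, 1 was lower and 2 were higher (backgrounds 3.47% and 1.83%). Crtc1, a coactivator of CREB, read 9.28 to 9.47 with BDNF and 9.42 to 9.90 with GFP (−0.27 ± 0.10). Rps6ka5, the kinase MSK1, which phosphorylates CREB and histone H3 below ERK, read 8.73 to 8.96 and 8.46 to 8.96 (0.24 ± 0.11), and Sos2, an exchange factor for Ras, 0.24 ± 0.11. None of 14 ERK feedback genes had an unadjusted p under 0.05 in either direction. Their median was −0.06, with the phosphatase gene Dusp4 at −0.25 ± 0.13 and Ier3 at −0.12 ± 0.10.

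Immediate early genes, which neurons transcribe within minutes of activity or of TrkB stimulation, were lower in 21 of 30, with a median of −0.08. At an unadjusted p under 0.05, 3 were lower and 0 higher (backgrounds 3.47% and 1.83%), and 6 were lower without GFP array 1. Ier2 read 6.36 to 6.50 with BDNF and 6.57 to 7.12 with GFP (−0.35 ± 0.12), and Ier5 and Gadd45b, a DNA damage-inducible gene also raised by activity, read −0.23 ± 0.10 and −0.28 ± 0.10. Arc, which regulates glutamate receptor trafficking and was named after its values were seen, read 9.29, 9.01, 9.03 and 8.52 with BDNF and 8.69, 9.20, 10.20 and 10.19 with GFP. GFP arrays 3 and 4 stood above the rest, and Arc differed by −0.61 ± 0.32. Fos read −0.35 ± 0.35 and Egr1 −0.11 ± 0.20. The mean over the 30 genes was 8.02 on BDNF array 4 and 8.21 to 8.22 on the other BDNF arrays, with GFP arrays at 8.12, 8.12, 8.39 and 8.42.

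MHC class II genes, which present antigen on activated microglia and other antigen-presenting cells, had the lowest median of the 38 lists, −1.19, and all 8 were below 0. Only 2 had an unadjusted p under 0.05 (background 3.47% lower), and no member's groups were separate. H2-Aa, the alpha chain of I-A, read 9.11, 7.59, 6.04 and 7.55 with BDNF and 10.70, 10.24, 9.94 and 5.93 with GFP. GFP array 4 was the lowest of all 8 arrays and the other 3 GFP arrays were the highest, so the difference of −1.63 ± 0.89 set a spread group against a split one. H2-Oa, a modulator of peptide loading in B cells, read −1.04 ± 0.35 and H2-DMa, the loading catalyst, −0.41 ± 0.15. H2-Aa and the other members outside this pair had an unadjusted p above 0.05.

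The same arrays stood apart across the whole list. The mean over the 8 MHC class II genes was 8.32, 8.51 and 8.22 on GFP arrays 1 to 3 and 5.90 on GFP array 4, against 7.65, 6.77, 5.84 and 6.53 on BDNF arrays 1 to 4. The non-transgenic GFP arrays read 9.11 and 7.84, and the sham arrays 5.80 to 5.94. BDNF array 1 thus lay close to non-transgenic GFP array 2. Without GFP array 4, all 8 genes had an unadjusted p under 0.05 and the median was −1.82. Without any other single array, 1 to 5 did and the median was −1.53 to −0.90. Within the Xist classes the median was −1.14 and −1.06.

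MHC class I genes followed the same order of arrays, with 13 of 13 lower and a median of −0.45. At an unadjusted p under 0.05 there was 1 gene, the peptide transporter Tap2 (−0.45 ± 0.20, background 3.47% lower). Their mean was 8.69, 8.79, 8.59 and 7.58 on GFP arrays 1 to 4 and 8.23, 7.91, 7.51 and 7.88 on BDNF arrays 1 to 4. GFP array 4 again lay with BDNF array 3 at the bottom. Without GFP array 4, 12 of 13 had an unadjusted p under 0.05, and without any other array at most 3 did.

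Interferon-stimulated genes, which encode antiviral and antigen-processing proteins, were lower in 38 of 44, with a median of −0.33. At an unadjusted p under 0.05, 6 were lower and 0 higher (backgrounds 3.47% and 1.83%). Oasl2, a 2′-5′-oligoadenylate synthase-like protein, read 6.59, 6.11, 5.54 and 6.31 with BDNF and 7.90, 7.62, 7.70 and 5.58 with GFP (−1.06 ± 0.47). Ifit3, an RNA-binding antiviral protein, read 7.86, 6.77, 6.69 and 7.16 with BDNF and 8.66, 8.29, 8.11 and 6.93 with GFP (−0.88 ± 0.36). For both, GFP arrays 1 to 3 were above every BDNF array and GFP array 4 among them. The transmembrane chaperone gene Rtp4 read −0.88 ± 0.39 and Parp9, an ADP-ribosyltransferase, −0.51 ± 0.18. The number at an unadjusted p under 0.05 was 25 without GFP array 4, 12 without BDNF array 1, 0 without GFP array 1 and 1 to 3 without each of the others. The median without 1 array was −0.46 to −0.26.

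Many genes of this class carry an interferon-stimulated response element, the binding sequence of ISGF3 and IRF factors. The consensus GAAANNGAAA was sought on both strands in the 250 bases before each annotated start, in RefSeq promoters of GRCm38.p6. It was found for 14 of the 32 interferon-stimulated genes with a promoter in the table (43.8%), and for 364 of 11956 of all genes tested (3.0%). For MHC class I genes it was 1 of 11, for MHC class II genes 0 of 5 and for myelin genes 1 of 29. The stretches around the match of 4 interferon-stimulated genes are printed because these genes, chosen after their values were seen, read high and low on the same arrays; capitals mark the match (TTTCNNTTTC where it lies on the other strand), and the letters are a description, not a shown binding site.
Ifit3: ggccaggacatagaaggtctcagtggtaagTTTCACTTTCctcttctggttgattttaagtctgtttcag
Ifit1: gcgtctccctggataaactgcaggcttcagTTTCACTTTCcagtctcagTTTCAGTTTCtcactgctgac
Gbp3: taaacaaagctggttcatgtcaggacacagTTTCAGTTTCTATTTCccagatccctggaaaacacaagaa
Cxcl10: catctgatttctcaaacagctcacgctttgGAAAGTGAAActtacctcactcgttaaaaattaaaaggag
They lie upstream of the start at chr19:34583343-34583412 on the plus strand (Ifit3), chr19:34640755-34640824 on the plus strand (Ifit1), chr3:142559969-142560038 on the plus strand (Gbp3) and chr5:92349063-92349132 on the minus strand (Cxcl10). Ifit1, a cap-recognizing antiviral protein, read −0.77 ± 0.42, Gbp3, an interferon-induced GTPase, −0.81 ± 0.41, and Cxcl10, a chemokine for T cells, −0.75 ± 0.40. Cxcl10 read 6.14, 5.67, 5.11 and 5.67 with BDNF and 6.94, 6.76, 6.66 and 5.24 with GFP, the same order of arrays as for Ifit3 at the top and the bottom of the GFP group. Others of the 14 genes with a match read nearer to 0: Rsad2 −0.03, Trim30a −0.08, Oas3 −0.12, Oas1a −0.21 and Stat2 −0.22.

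**Figure D3:**
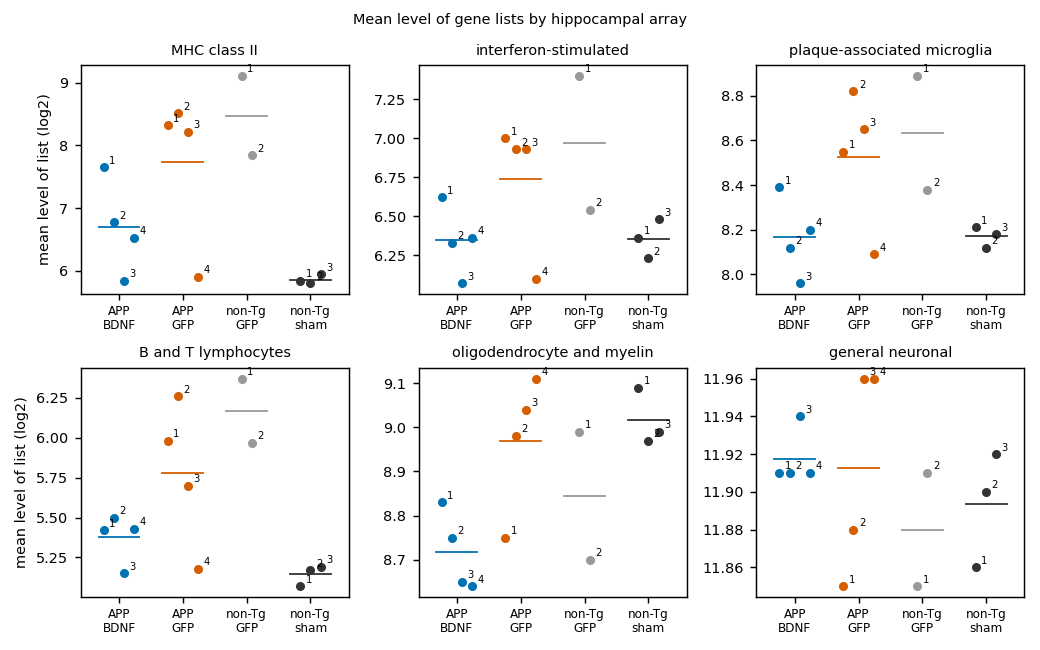
Mean log2 level of 6 gene lists on each hippocampal array (points, numbered by replicate; lines, group means). For the 3 immune lists of the upper row and for lymphocyte genes, GFP arrays 1 to 3 are high and GFP array 4 is low, whereas for myelin genes GFP array 4 is the highest (9.11) and GFP array 1 the lowest of its group (8.75); general neuronal genes span only 11.85 to 11.96.

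Among microglial genes, those of cells around plaques had the lower median. Of 29 genes of plaque-associated microglia, 24 were lower, with a median of −0.27. At an unadjusted p under 0.05 there were 10 lower and 1 higher (backgrounds 3.47% and 1.83%). Trem2, the lipid receptor on which the plaque response depends, read 6.65, 6.27, 6.32 and 6.54 with BDNF and 6.93, 6.94, 6.77 and 6.56 with GFP (−0.35 ± 0.10). The overlap came from GFP array 4, below BDNF array 1. Its second probe set, dim at a mean of 4.38, read 0.08 ± 0.08. Cd68, a lysosomal protein of phagocytes, read −0.56 ± 0.18 and Gpnmb, a lysosomal stress glycoprotein, −0.91 ± 0.30. Lpl, lipoprotein lipase, went the other way, at 11.14, 11.68, 11.67 and 11.77 with BDNF and 11.06, 11.44, 11.11 and 11.02 with GFP (0.41 ± 0.14). Clec7a, the dectin-1 receptor, and Itgax, the integrin CD11c, named after their values were seen, read −1.31 ± 0.50 and −0.77 ± 0.27, and Apoe 0.03 ± 0.06.

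The mean over the 29 genes was 8.39, 8.12, 7.96 and 8.20 with BDNF, 8.55, 8.82, 8.65 and 8.09 with GFP, 8.89 and 8.38 on non-transgenic GFP arrays and 8.12 to 8.21 on sham arrays. As for MHC genes, the highest array was a non-transgenic one. The number lower at an unadjusted p under 0.05 was 15 without GFP array 4 and 4 to 6 without BDNF arrays 2 or 3 or GFP arrays 2 or 3.

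Of 25 genes of microglia in general, 21 were lower, with a median of −0.14. Of these, 6 had an unadjusted p under 0.05, as did 1 higher gene (backgrounds 3.47% and 1.83%). The MD-1 gene Ly86 read 9.57, 9.13, 8.93 and 9.24 with BDNF and 10.16, 10.19, 10.14 and 9.08 with GFP (−0.68 ± 0.23). Tyrobp, the signalling adaptor of Trem2, read −0.54 ± 0.20 and Tmem119, a marker of resident microglia, −0.39 ± 0.14. P2ry12 and Cx3cr1, receptors of the resting state that were named after their values were seen, read 0.00 ± 0.07 and 0.04 ± 0.13, and Csf1r, the survival receptor, −0.14 ± 0.09. The count of 6 became 12 without GFP array 4, 8 without BDNF array 1, and 2 or 3 without BDNF arrays 2 or 3 or GFP arrays 1 or 2.

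Fcrls, an Fc receptor-like gene of microglia, was the exception with the largest difference, 8.07, 7.16, 8.18 and 7.71 with BDNF and 7.10, 6.50, 6.83 and 6.98 with GFP (0.93 ± 0.27). The groups did not overlap, and the sham arrays read 8.29 to 8.61 against 5.74 and 7.07 on the non-transgenic GFP arrays. In entorhinal cortex Fcrls read 1.04 ± 0.25.

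Complement genes were lower in 12 of 13, with a median of −0.17. C1qa, a chain of the initiating C1q complex, was the 1 at an unadjusted p under 0.05 (−0.64 ± 0.24, background 3.47% lower). There were 6 without GFP array 4, 3 without BDNF array 1 and 0 without BDNF array 3 or GFP array 2. Chemokine and receptor genes were lower in 16 of 19 (median −0.16), 3 of them and 1 higher gene at an unadjusted p under 0.05 (backgrounds 3.47% and 1.83%). Cxcl9, an interferon-gamma-induced chemokine, read 5.90, 4.80, 4.76 and 5.31 with BDNF and 7.53, 7.31, 6.97 and 4.53 with GFP (−1.39 ± 0.55). Cxcl13, which attracts B cells, read −1.01 ± 0.33 and Ccl8, which attracts monocytes, −0.79 ± 0.29. Ccr2, the receptor of blood monocytes, read 0.19 ± 0.07 on its brightest probe set. Its dimmer probe sets, below the filter, read −0.01 to 0.00. Without GFP array 4 the 3 lower chemokine genes became 7, and without BDNF array 3 or GFP array 2 they became 1. Border macrophage and blood myeloid genes had a median of 0.01, with the integrin gene Itgal at −0.79 ± 0.32 (second, dimmer probe set −0.06 ± 0.08).

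In the lymphocyte list 17 of 24 genes were lower (median −0.14), 5 of them at an unadjusted p under 0.05 (background 3.47%). All 5 belong to B cells and plasma cells. Ighm, the IgM heavy chain, read 12.30 and 12.81 on GFP arrays 1 and 2 and 7.22 and 7.50 on GFP arrays 3 and 4, against 6.58 to 7.28 on the BDNF arrays. It thus split the GFP group into 2 and 2 arrays, and its range on the other hippocampal arrays was as wide, 12.12 and 12.44 on the non-transgenic GFP arrays and 6.31 to 6.60 on the sham arrays. The difference was −3.10 ± 1.03, and the other probe sets above the filter read −3.68 to −0.22. Mzb1, a chaperone of antibody-secreting cells, read 7.26, 7.77, 5.79 and 5.35 with GFP and 5.26 to 5.63 with BDNF (−1.08 ± 0.42). Cd79a, of the B cell receptor, and Sdc1, syndecan-1, did not overlap (−0.28 ± 0.09 and −0.37 ± 0.16), at levels of at most 5.56. The 2 other probe sets of Sdc1 above the filter read 0.10 and 0.05, and a dimmer one below it −0.44.

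T cell markers, named after their values were seen, showed no such split: Cd3e read 6.58 to 6.86 with BDNF and 6.53 to 6.96 with GFP (−0.07 ± 0.10), and Cd8a 0.02 ± 0.06. The T cell and natural killer chemokine Ccl5 read 7.85, 7.73, 6.92 and 5.52 with GFP and 5.51 to 6.97 with BDNF (−0.90 ± 0.54). Without GFP array 4 the lymphocyte genes at an unadjusted p under 0.05 became 8, without BDNF array 3 or GFP array 2 they became 2, and without BDNF array 1 or GFP array 1 they became 3. How far immune cells in or on the tissue account for the levels of MHC, interferon and microglial genes was not tested.

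**Figure D4:**
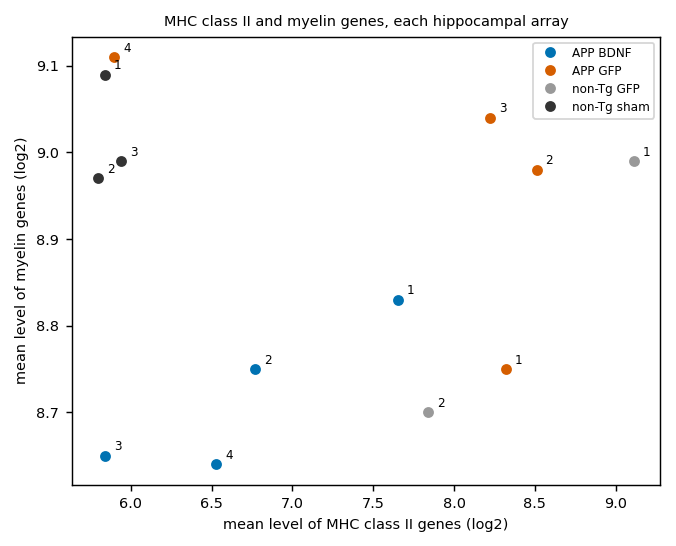
Mean log2 level of MHC class II genes (horizontal) and of myelin genes (vertical) on each of the 13 hippocampal arrays, numbered by replicate. GFP array 4 and BDNF array 3 have like MHC class II levels, 5.90 and 5.84, and lie at opposite ends of the myelin range, 9.11 and 8.65.

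In MHC class II genes, BDNF arrays 2 to 4 (6.77, 5.84 and 6.53) read below GFP arrays 1 to 3. Of them, arrays 2 and 4 lay above GFP array 4. In myelin genes, BDNF arrays 2 to 4 (8.75, 8.65 and 8.64) read below GFP arrays 2 to 4. The order of the arrays thus differed between the lists for GFP arrays 1 and 4. Where GFP array 4 and BDNF array 3 were alike in MHC class II genes (5.90 and 5.84), they were far apart in myelin genes (9.11 and 8.65). GFP array 1, high in MHC class II genes at 8.32, was among the BDNF arrays in myelin genes at 8.75.

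Among astrocyte genes, the reactive ones had the lower median. Reactive astrocyte genes were lower in 20 of 26 (median −0.17), 4 of them at an unadjusted p under 0.05 (background 3.47%). Gfap, the intermediate filament of astrocytes, read 10.69, 10.29, 9.96 and 10.44 with BDNF and 10.68, 11.33, 11.57 and 10.18 with GFP (−0.60 ± 0.25). GFP arrays 2 and 3 were above the rest and GFP array 4 was within the BDNF range, while non-transgenic arrays read 10.53 to 10.86. Its 2 other probe sets read −0.58 ± 0.24 and −0.33 ± 0.26. Cd14, a coreceptor for bacterial lipopolysaccharide, read 6.33 to 6.59 with BDNF and 6.60 to 7.01 with GFP (−0.37 ± 0.10), and Aspg, an asparaginase-like enzyme, 5.33 to 5.66 and 5.70 to 5.87 (−0.28 ± 0.08). These 2 did not overlap, and Osmr, the oncostatin M receptor, read −0.57 ± 0.23. The count of 4 became 11 without GFP array 4, 7 without GFP array 3, and 2 without BDNF arrays 2 or 3 or GFP array 2. Over all genes the lower count moved too, from 519 to 869 without GFP array 3 and to 330 without BDNF array 2.

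Astrocyte genes in general had a median of −0.04, with 13 of 22 lower. Kcnj10, the potassium channel Kir4.1, read −0.18 ± 0.08 and Mlc1, of astrocyte endfeet, −0.16 ± 0.07. Endothelial and mural cell genes were lower in 23 of 27, but by little, with a median of −0.10. At an unadjusted p under 0.05 there was 1 gene, the vascular factor Egfl7 (−0.20 ± 0.08), or 0 to 3 without 1 array (background 3.47% lower). Of 17 meningeal genes 8 were lower (median 0.01). Col1a1, fibrillar collagen, read 5.15 to 5.34 with BDNF and 5.39 to 5.85 with GFP (−0.34 ± 0.09), and Mgp, matrix Gla protein, 0.29 ± 0.10.

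Neuronal gene lists had medians near 0. General neuronal genes had a median of 0.04 and presynaptic genes of 0.00, the latter with 0 at an unadjusted p under 0.05 in either direction. The SNARE-disassembling ATPase gene Nsf read 0.09 ± 0.06 and Unc13a, which primes vesicles, −0.17 ± 0.08. Glutamate receptor and postsynaptic genes had a median of 0.01, with 15 of 31 lower. Dlg2, the scaffold PSD-93, read 10.02 to 10.33 with BDNF and 9.66 to 10.28 with GFP (0.29 ± 0.12) on its brightest probe set, but −0.40 ± 0.22 and 0.24 ± 0.08 on the 2 dimmer ones. Grin2c, an NMDA receptor subunit, read −0.18 ± 0.08. Grik5, a kainate receptor subunit, read −0.29 ± 0.13, with GFP array 3 at 10.07 and the other 7 arrays at 9.15 to 9.44. App itself read 13.14 to 13.25 with BDNF and 13.03 to 13.24 with GFP (0.03 ± 0.06), and amyloid processing genes had a median of 0.01. Non-transgenic arrays had like App means, 13.20 with GFP and 13.14 with sham lesion. The App probe set thus did not tell the genotypes apart, and its values do not give the level of the transgene.

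GABAergic interneuron genes were higher in 17 of 23, with a median of 0.07, and 2 had an unadjusted p under 0.05 (background 1.83%), or 0 to 3 without 1 array. Cnr1, the cannabinoid receptor on terminals of cholecystokinin interneurons, read 11.35, 11.46, 11.31 and 11.35 with BDNF and 11.29, 11.07, 11.13 and 11.18 with GFP (0.20 ± 0.09). The groups were separate by a narrow gap, and non-transgenic GFP array 2, at 11.37, lay among the BDNF arrays. Gad2, one of both enzymes that make GABA, read 9.95 to 10.27 and 9.84 to 10.10 (0.18 ± 0.08). Some interneuron markers, named after their values were seen, did not share this: Sst read −0.03 ± 0.16, Npy −0.08 ± 0.11 and Pvalb, parvalbumin, −0.18 ± 0.11. Members of the whole list spanned −0.18 to 0.70. The median was −0.04 among Xist-high arrays (13 of 23 lower) and 0.14 among Xist-low arrays (2 of 23 lower), and 0.00 without GFP array 2.

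Of 10 GABA-A receptor subunits, 2 were higher and 1 lower at an unadjusted p under 0.05 (backgrounds 1.83% and 3.47%). Gabrg3 read 5.63 to 5.68 with BDNF and 5.27 to 5.58 with GFP (0.24 ± 0.08), without overlap, and Gabra3 0.27 ± 0.12. Gabrd, the delta subunit of tonic inhibition in dentate granule cells, read 7.58, 7.43, 7.84 and 7.45 with BDNF and 7.94, 8.08, 7.88 and 7.75 with GFP (−0.34 ± 0.12). Only BDNF array 3 and GFP array 4 overlapped, and the difference in entorhinal cortex was −0.51. Its second probe set, at a mean of 4.34, read 0.10 ± 0.10. Neuropeptide and secretory granule genes had a median of 0.00 and 0 at an unadjusted p under 0.05, although Gal, galanin, read 6.15 to 6.21 with BDNF and 5.47 to 6.10 with GFP (0.30 ± 0.15), without overlap. Adcyap1, the peptide PACAP, read 0.38 ± 0.22.

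In the fields that receive entorhinal axons, dentate granule cell genes had a median of −0.05 and CA pyramidal cell genes of 0.02. The direction of the dentate median depended on single arrays: it was −0.13 without GFP array 4 (17 of 19 lower) and 0.09 without GFP array 2 (7 of 19 lower). Among Xist-high arrays it was 0.06 and among Xist-low arrays −0.14. Of the granule cell list, Pdzph1 read −0.44 ± 0.21 and the actin-regulatory gene Marcksl1 −0.19 ± 0.09. Both genes read higher in entorhinal cortex than in hippocampus, so in these data they did not mark granule cells. Pdzph1 had means of 6.14 with BDNF and 6.16 with GFP in entorhinal cortex, against 4.79 and 5.23 in hippocampus. Prox1, the transcription factor that defines granule cells, read 7.06, 6.99, 7.57 and 6.59 with BDNF and 6.84, 7.96, 6.57 and 7.47 with GFP, a wider range within each group than the difference of −0.16 ± 0.28. Plagl1, a zinc finger factor, read 10.61 to 10.96 with BDNF and 10.91, 9.13, 10.14 and 10.10 with GFP (0.72 ± 0.30), and Bok and Pcp4, a calmodulin regulator of CA2, −0.28 ± 0.12 and −0.20 ± 0.09. GFP array 2 set much of the Plagl1 difference. How far dissection of the fields differed between arrays was not tested.

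Axonal growth genes had a median of 0.06, with 15 of 24 higher, but the 2 at an unadjusted p under 0.05 were lower (background 3.47%). Nefl, the neurofilament light chain, read 12.61, 12.47, 12.63 and 12.52 with BDNF and 12.67, 12.71, 12.72 and 12.73 with GFP (−0.15 ± 0.06), without overlap, but its second probe set, as bright, read −0.02 ± 0.06. Atf3, a factor induced in injured neurons, read 4.84 to 4.97 with BDNF and 4.97 to 5.43 with GFP (−0.28 ± 0.10). Newborn neuron genes had a median of 0.04, with 0 at an unadjusted p under 0.05.

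Of the metabolic and stress lists, cholesterol synthesis genes were lower in 15 of 20 by a median of −0.06, with Mvd at −0.26 ± 0.16. Heat shock and cochaperone genes were higher in 13 of 18 by a median of 0.07, while their 1 gene at an unadjusted p under 0.05, Bag3, read −0.19 ± 0.08. St13, an Hsc70-interacting cochaperone, read 10.59 to 11.17 on the 8 arrays and 11.53 to 11.65 on non-transgenic arrays, with no difference between vectors beyond its error (0.12 ± 0.10). Medians were −0.01 for glucocorticoid-responsive, −0.05 for circadian, 0.00 for respiratory chain, 0.03 for cortical layer and 0.02 for choroid plexus and ependymal genes, with Ddit4 at 0.42 ± 0.23, Dbp at −0.29 ± 0.21, Sdhc at −0.22 ± 0.11 (0.06 ± 0.13 on its other probe set), Syt6 at 0.19 ± 0.08 and Kl at −0.70 ± 0.35.

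**Figure D5:**
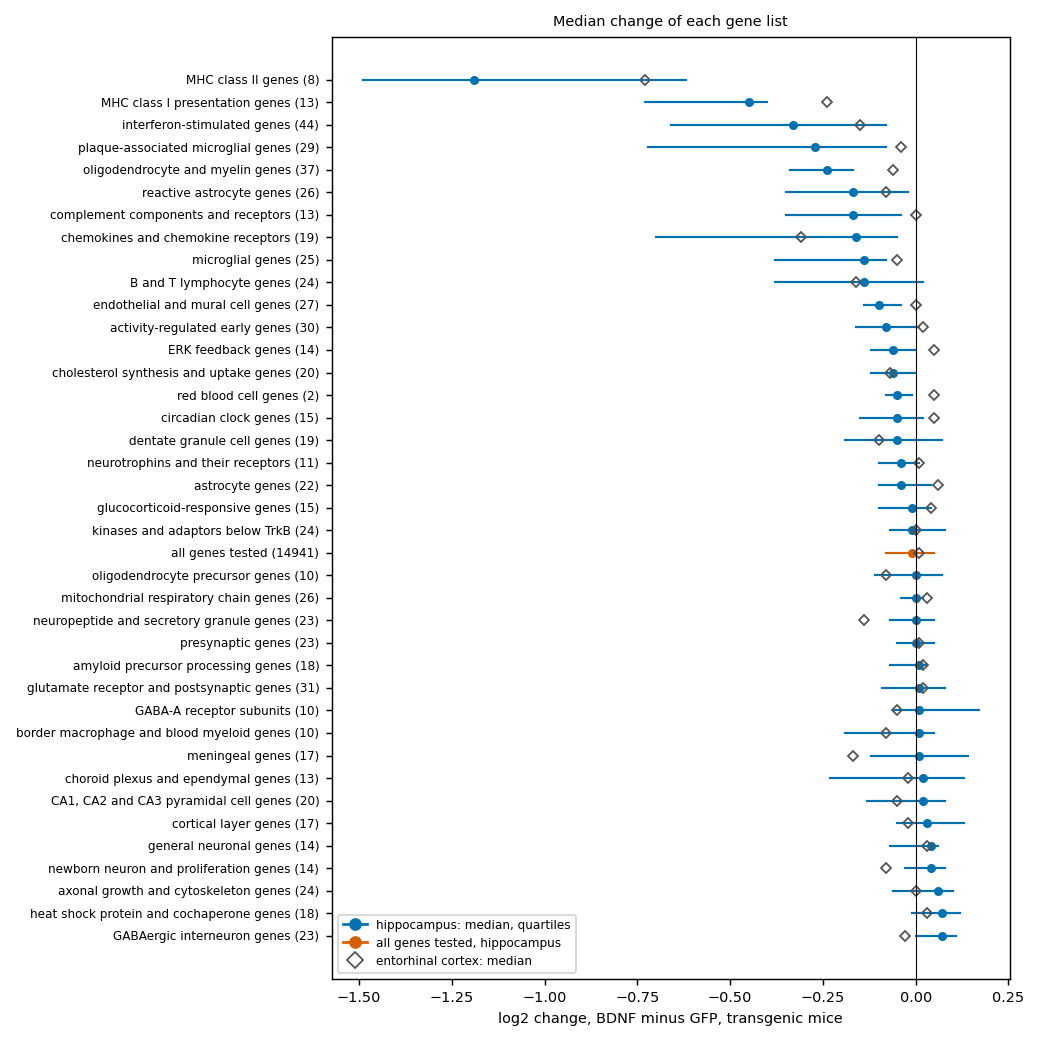
Median log2 change, BDNF minus GFP, of 38 gene lists and of all genes tested in hippocampus (circles; lines span the quartiles), with the entorhinal median of the same genes (diamonds); the number of genes tested is in brackets. The 5 lowest hippocampal medians are those of MHC class II (−1.19), MHC class I, interferon-stimulated, plaque-associated microglial and myelin genes (−0.24), and the medians of general neuronal (0.04) and presynaptic genes (0.00) lie near 0.

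Whether the effect differed from that at the injected region was tested over all 26 arrays. Limma called 0 of 14941 genes (0%), and 602 (4.03%) had an unadjusted p under 0.05. The smallest limma adjusted p was 0.863, shared by 6430628N08Rik and Trpc7, a calcium-permeable channel of the transient receptor potential family. Trpc7 read 6.18 to 6.28 with BDNF and 5.80 to 6.15 with GFP in hippocampus, without overlap (0.23 ± 0.08), and −0.46 ± 0.12 in entorhinal cortex. For 6430628N08Rik the hippocampal change was 0.07 ± 0.07 and the entorhinal one −0.41 ± 0.08. Large2, a glycosyltransferase, Nr0b2, an orphan nuclear receptor, and 2310061N02Rik read 0.18, 0.16 and 0.27 in hippocampus and −0.23, −0.32 and −0.20 in entorhinal cortex, and LOC664787 read 0.01 and −0.45.

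By list, genes of antigen presentation had medians below 0 in both regions. Arrays of the 2 regions may share animals, so the regions need not be separate observations. MHC class II genes were lower in 8 of 8 in both regions (medians −1.19 and −0.73), MHC class I genes in 13 of 13 (−0.45 and −0.24) and interferon-stimulated genes in 38 and 36 of 44 (−0.33 and −0.15). Myelin genes were lower in 36 of 37 in hippocampus and 28 of 37 in entorhinal cortex (−0.24 and −0.06). Of the 37, 2 differed between the regions at an unadjusted p under 0.05, near the background of 4.03% over all genes. Plaque-associated microglial genes had medians of −0.27 and −0.04, and 2 of 29 differed at that level, against the same background of 4.03%. Astrocyte genes were lower in 13 of 22 in hippocampus and 1 of 22 in entorhinal cortex (−0.04 and 0.06). None of these differences between regions passed the test for any gene.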

How the data were processed

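RNA of dissected, snap-frozen tissue had been hybridized to Affymetrix arrays. The authors deposited a single table of log2 values for the 26 arrays, from RMA per the submitters' processing notes; neither the version of RMA nor a build is given in the sources used here. RMA equalizes array distributions, which hides any shift common to most genes, and compresses differences of dim probe sets. Array medians were 5.51 to 5.58.

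Of 45101 probe sets, 34958 had 1 symbol in the platform annotation, 932 several and 9211 none; 34754 symbols were updated through Entrez identifiers (GRCm38.p6). For each of 18194 genes the probe set with the highest mean stood for the gene, and genes under the 30th percentile (4.33) were left out, leaving 14941. Linear models were fitted to the deposited log2 values with limma 3.58.1 in R 4.3.3 (lmFit, eBayes; 2-sided; Benjamini-Hochberg), over the 13 hippocampal arrays and their 4 groups, or all 26 arrays for the difference between regions. The number of arrays limits the precision. The fit was tested on simulated data.

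The 38 gene lists (824 genes, 725 tested) and the comparison were chosen with earlier results of these data known. Lists were described by counts and medians, not tested. Genes were named by rule: Bdnf, Ntrk2, Ngfr, App, Gfap, Thy1 and St13; the 12 per direction with the smallest p; up to 4 members per list at an unadjusted p under 0.05, or else the 2 with the smallest p; and the 6 with the smallest p between regions. The alternatives dropped the filter or moved it to the 50th percentile, averaged a gene's probe sets or took all probe sets, renewed the quantile normalization, centred medians, and used eBayes with trend and robust options, weights for arrays, only the 8 arrays, all 26 arrays, the replicate number as a block, Xist as a covariate, and leaving out each array.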

Additional observations from a re-analysis of the deposited data

Results flagged for a closer look

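Within the groups of 4, each array was compared with the other 3 by the gap to its nearest neighbour as a share of the group's range, for 119 named genes and the means of 38 lists in both groups (314 groups of 4). A share above Dixon's 95% critical value, which chance gives in about 1 in 20 groups, was found 23 times. GFP array 4 was the low array for 6 of these. They were the means of MHC class II (share 0.888; 5.90 against 8.22 to 8.51), MHC class I (0.836) and interferon-stimulated genes (0.92), Oasl2 (0.878), Ly86 (0.957; 9.08 against 10.14 to 10.19) and Pcp4 (0.873).

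GFP array 3 was the high array for Grik5 (0.861), Ncstn (0.878), Hif3a (0.896), Nsf (0.841) and Tg (0.836), and GFP array 1 for Rps6ka5 (0.921; 8.96 against 8.46 to 8.50). Among the BDNF arrays, array 1 was low for Gask1b (0.891) and Lpl (0.838) and high for Crtc1 (0.853), and array 2 was low for Unc13a (0.961). Array 3 was low for Klk6 (0.911) and Sdc1 (0.866) and high for Nr0b2 (0.877) and for the means of glutamate receptor (0.834) and general neuronal genes (0.913). Array 4 was low for the mean of immediate early genes (0.951) and high for that of neurotrophin and receptor genes (0.837).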

How the results depend on the processing

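In 12 other settings and 8 fits without 1 array, 0 genes were called, and the smallest limma adjusted p ranged from 0.0814 (Acer2, filter at the 50th percentile) to 0.792 (Astl, renewed quantile normalization). Of 119 named genes, 113 kept their direction throughout. The number of arrays limits what could be called. The 274 higher and 519 lower genes at an unadjusted p under 0.05 became 648 and 817 with all probe sets. Renewed quantile normalization gave 441 higher, and all 26 arrays in 1 fit gave 315 lower. Leaving out 1 array gave 143 (without BDNF array 2) to 540 (without GFP array 3) higher, and 330 to 869 lower, without the same arrays. For the difference between regions the count of 602 became 410 to 1006; it was 1006 without hippocampal GFP array 3 and 997 without entorhinal BDNF array 4.

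With the replicate number as a block, 143 genes were higher and 0 were called. Deviations of same-numbered BDNF and GFP arrays from their group means correlated at −0.25 to −0.02, and those of differently numbered arrays at −0.28 to 0.44. With so few pairs, these values cannot decide whether the numbers pair the arrays.

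The median of choroid plexus genes was 0.12 with the filter at the 50th percentile, and that of oligodendrocyte precursor genes 0.08 with the mean of probe sets. Without 1 array, medians ranged from −0.13 to 0.09 for dentate granule cell, −0.11 to 0.11 for meningeal, −0.13 to 0.01 for cholesterol synthesis, −0.01 to 0.10 for cortical layer, −0.04 to 0.02 for amyloid processing, −0.07 to −0.01 for glucocorticoid-responsive and 0.00 to 0.06 for axonal growth genes. Differences near 0 that changed sign were Ntrk2 (0.00) and Atp5a1 (−0.06) with the mean of probe sets and Thy1 (0.00) with median centring. Without 1 array, ranges were −0.02 to 0.03 for Thy1, −0.04 to 0.09 for Ntrk2, −0.02 to 0.05 for LOC664787, −0.01 to 0.06 for Hba-a1 and −0.01 to 0.06 for App. The cause of these shifts was not tested.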
